A study of Mus musculus with 18 samples.

Results

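The genes described here encode splicing factors and spliceosome proteins in mouse male germ cells. They were chosen by name alone, as the protein-coding genes in the mm9 annotation whose symbol begins with *Srsf*, *Hnrn*, *Snrp*, *Sf3a*, *Sf3b*, *Prpf* or *U2af*. This gave 65 of 22380 annotated protein-coding genes: 11 SR protein genes, 18 hnRNP protein genes, 12 snRNP protein genes, 3 SF3A, 5 SF3B and 3 U2AF genes, and 13 PRPF genes. Large RNA was sequenced from 3 germ cell types that had been sedimented out of pooled testes of adult, wild type C57BL/6 mice: pachytene spermatocytes, which are in meiosis, and the round and then elongating spermatids that follow. The cytoplasm of each cell type was separated on a sucrose gradient, with cycloheximide in the buffers, into a polysome fraction (RNA bound by many ribosomes) and an RNP fraction (light particles free of ribosomes), with 3 libraries of each fraction, so that 18 libraries in 6 groups were compared. No group was treated or mutated, and sedimentation enriches a cell type rather than isolating it. By the paper's estimate from cell morphology, purity was lowest for elongating spermatids. A gene's level is the sum of the FPKM (sequenced fragments scaled to transcript length and to the number of mapped fragments) of the assembled transcripts that share a splice junction with it. A level of 0 means that no such transcript was assembled, not that the RNA was absent.

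Removal of introns begins when the U1 snRNP pairs with the 5′ splice site while the U2AF proteins bind the 3′ splice site and its polypyrimidine tract. The SF3A and SF3B complexes, parts of the U2 snRNP, then hold the branch site, and PRPF proteins of the tri-snRNP and of the complexes that join it build the catalytic core. SR proteins mostly promote the use of nearby exons, hnRNP proteins often repress it, and several SR proteins limit their own output through poison exons, whose inclusion brings in a premature stop codon and exposes the mRNA to nonsense-mediated decay (NMD). Meiotic and early haploid male germ cells splice an unusually rich set of transcripts, and many mRNAs made then are stored in RNPs for translation in elongating spermatids, whose nuclei stop transcribing as chromatin is compacted.

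The 2 round spermatid libraries numbered 2 stood apart and went against their label. *Acrv1*, an acrosomal gene of round spermatids, had 415, 10.5 and 276 FPKM in the 3 round polysome libraries and 123, 4.60 and 83.6 FPKM in the 3 round RNP libraries, the low value being replicate 2 each time. Summed over 14 round spermatid markers, replicate 2 had 327 FPKM in round polysomes and 183 FPKM in round RNPs, against 892 to 2649 FPKM in the other 4 round libraries. Summed over 14 Sertoli cell markers, replicate 2 had 3369 FPKM in round polysomes and 1695 FPKM in round RNPs, against 73 to 304 FPKM in the other 4 round libraries and 49 to 118 FPKM in the 6 elongating libraries. In pachytene cells the same sum was 509.9 to 2329 FPKM in polysomes and 208 to 1900 FPKM in RNPs. Log2 levels of replicate 2 correlated with those of the other round libraries of its fraction at 0.48 to 0.62 across genes, against 0.82 and 0.84 between replicates 1 and 3. Of the splicing genes, 49 of 65 were highest in replicate 2 among the 3 round polysome libraries and 52 of 65 among the 3 round RNP libraries, where 48.5% and 44.4% of all tested genes were highest. The part of this in the results was not tested, and the results that rest on these libraries are given with and without them. Total reads were not used here, so precision was judged only from the spread between libraries, which the main tests pooled over the 6 groups.

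All 65 genes reached 1 FPKM in at least 3 libraries and were tested among 14664 genes. Between 62 and 65 of them had an assembled transcript in any 1 library, and the median level of the 65 was 32.7 to 53.2 FPKM in pachytene polysomes, 21.6 to 62.5 FPKM in round polysomes and 20.7 to 25.3 FPKM in elongating polysomes. In RNPs the medians were 10.1 to 24.4, 11.2 to 38.3 and 7.32 to 11.2 FPKM in the same order of cell types. In both round fractions the highest median was that of replicate 2. *Hnrnpf*, *Hnrnpk*, *Snrpc* and *Sf3b2* were among the 10 members with the highest mean FPKM in each of the 6 groups, and the first-ranked member was *Hnrnpk* in both pachytene groups and round polysomes, *Snrpc* in round RNPs, *Hnrnpf* in elongating polysomes and *Snrpd2* in elongating RNPs, with *Hnrnpa0* left out of the ranking. *Hnrnpk* and *Hnrnpf*, which encode hnRNP proteins that bind poly(C) and G-rich RNA, averaged 225 ± 45.3 and 208 ± 101 FPKM in pachytene polysomes (SD, n = 3 each). In elongating polysomes *Hnrnpf* was at 178 ± 14.3 FPKM and *Hnrnpk* at 114 ± 37.6 FPKM (SD, n = 3 each).

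**Figure D1:**
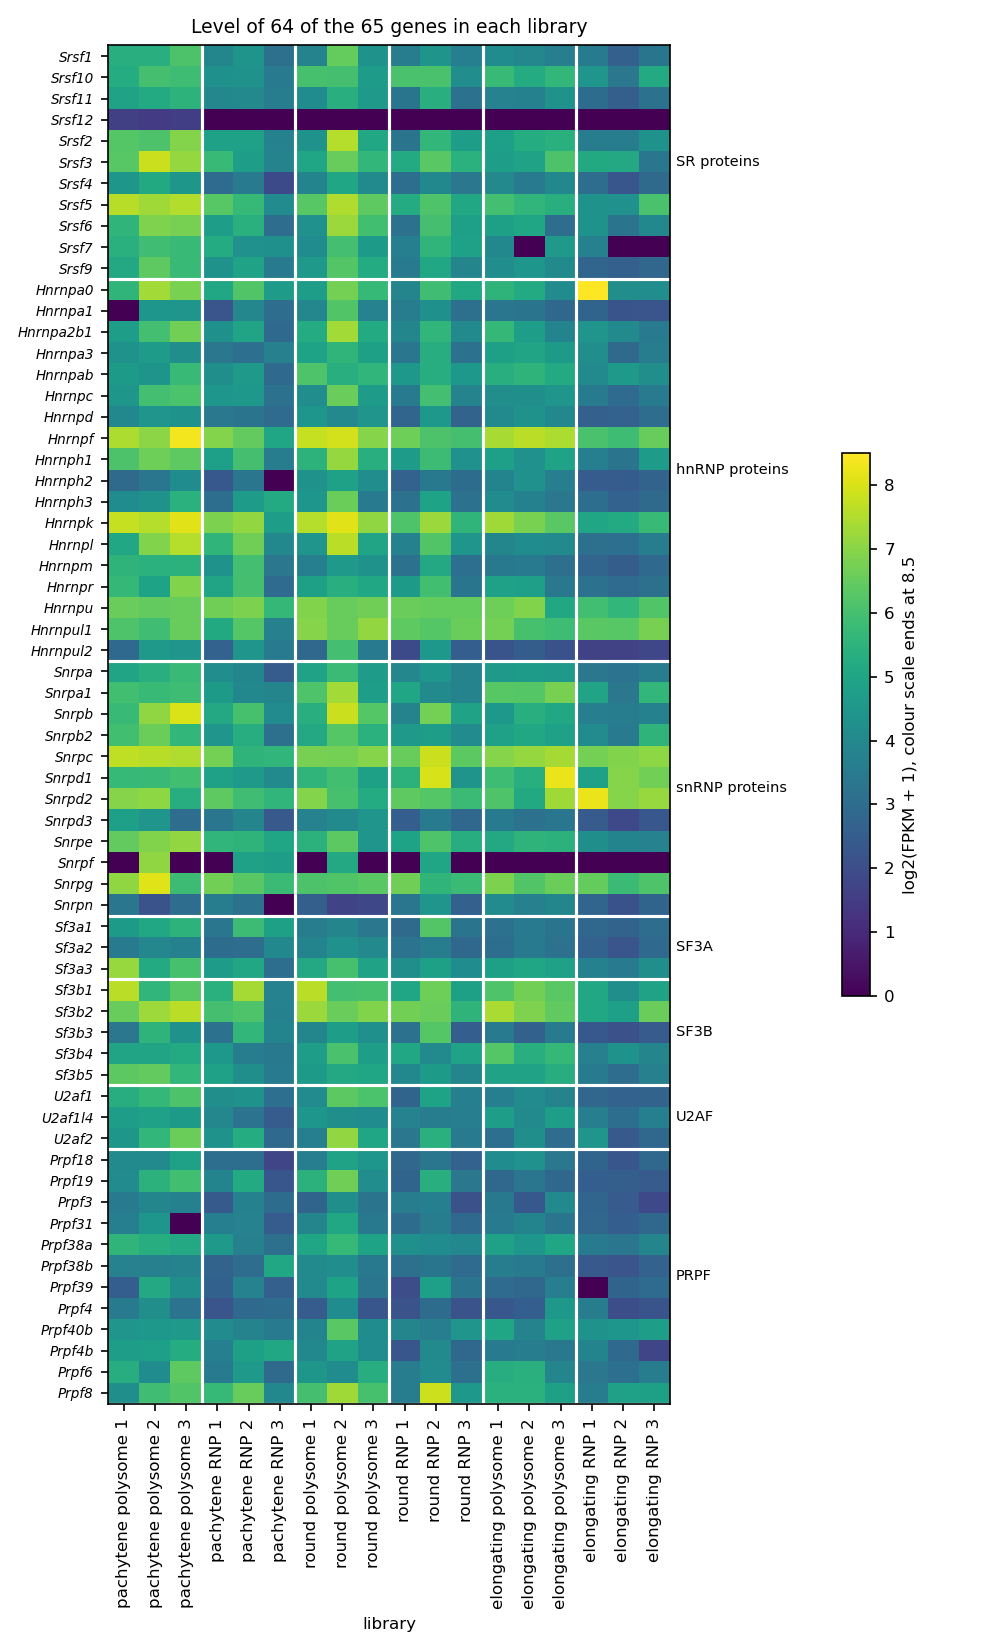
Level of 64 of the 65 genes (rows, by family) in each of the 18 libraries (columns), as log2(FPKM + 1) on a colour scale that ends at 8.5. Polysome columns are brighter than the RNP columns of their cell type for most genes, the round libraries numbered 2 are bright, and dark cells are levels of 0, as for *Srsf12* and *Snrpf*.

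A few members departed from this general expression. *Srsf12* (chr4:33295966-33320315), which encodes an SR-related protein that can oppose other SR proteins, had 2.04, 1.80 and 1.97 FPKM in the 3 pachytene polysome libraries and was listed at 0 in the other 15. *Srsf12* passed the filter of 1 FPKM in 3 libraries through this group alone, so any difference between pachytene polysomes and another group was fixed by the filter, and its calls are no result. *Snrpf* (chr10:93045774-93052451), a protein of the Sm ring that every U1, U2, U4 and U5 snRNP carries, was listed at 0 in 13 libraries. Its values above 0 were 134 FPKM in pachytene polysome replicate 2, 28.2 and 25.8 FPKM in pachytene RNP replicates 2 and 3, 33.9 FPKM in round polysome replicate 2 and 31.2 FPKM in round RNP replicate 2. The other Sm genes were assembled in every library, save *Snrpn* in 1. *Hnrnpa0* (chr13:58227240-58229917), with *Sf3b5* a gene without introns and so valued by overlap in place of a junction, had 11925 FPKM in elongating RNP replicate 1 and 13.7 to 159 FPKM in the other 17 libraries. No mean is given for that group. Members with processed pseudogenes, such as *Hnrnpa1*, *Hnrnpa3*, *Snrpe* and *Snrpg*, may share reads with them, and their levels are uncertain.

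The comparison of the polysome with the RNP fraction asks which mRNAs had a higher FPKM in one fraction than in the other in each cell type. The mono-ribosome fraction that lay between them on the gradient is not among these libraries, and FPKM is relative within a library. The differences therefore do not give the part of an mRNA that was bound by ribosomes. In pachytene spermatocytes 9 splicing genes were called higher in polysomes than in RNPs and none lower (adjusted p under 0.05, limma with Benjamini-Hochberg adjustment over all genes), where 6.16% of all genes were called higher. Apart from *Srsf12*, whose call was fixed by the filter, 8 rose: the SR protein genes *Srsf3*, *Srsf4* and *Srsf5*, the U1 snRNP genes *Snrpa* and *Snrpc*, and *Sf3b5*, *Prpf38a* and *U2af1l4*. At an unadjusted p under 0.05 there were 34. For levels, counts at an unadjusted p are given here and below without the share of all genes at that threshold. They are no result about the splicing genes as a set, and the shares of all genes called refer to adjusted p. Polysome and RNP libraries did not overlap, with polysomes higher, for 33 of the 65, *Srsf12* among them through the filter, against 29.5% of all genes. The log2(FPKM + 1) difference was above 0 for 62 of 65 genes, with a median of 1.36 beside 1.01 over all genes. By family the median difference was 1.78 for SR proteins, 1.53 for U2AF, 1.37 for snRNP proteins, 1.19 for SF3B, 1.13 for hnRNP proteins, 0.94 for PRPF and 0.40 for SF3A.

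**Figure D2:**
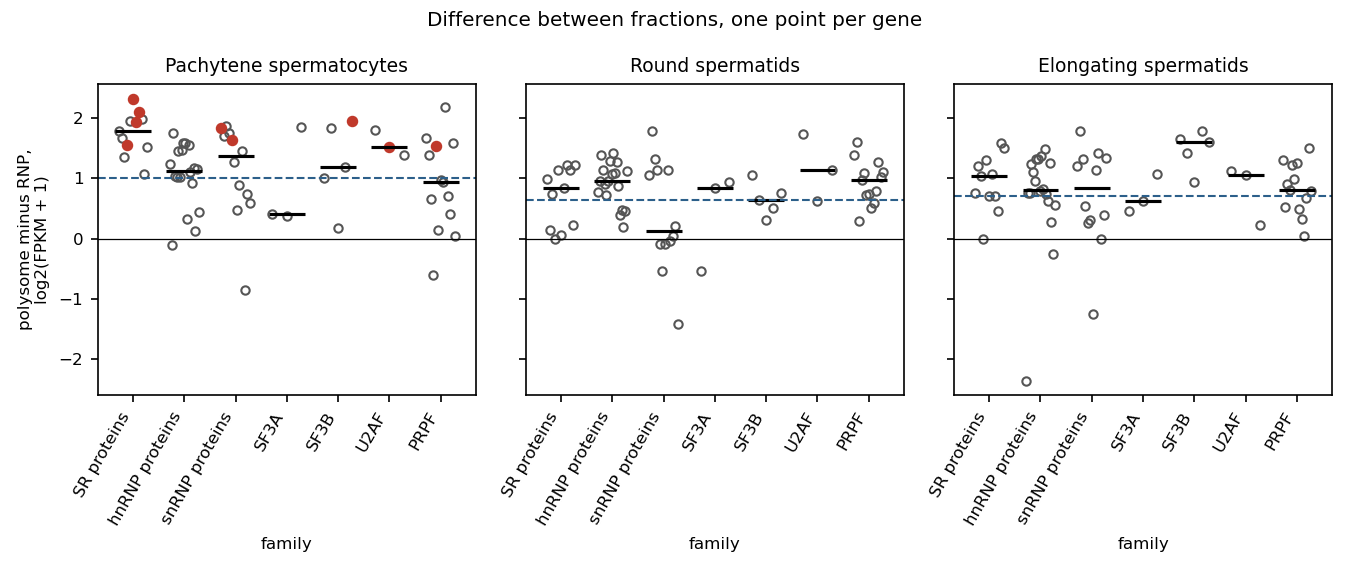
Polysome minus RNP difference in log2(FPKM + 1) for every gene, by family and cell type. Filled points passed the test, black bars are family medians, and the dashed line is the median of all tested genes (1.01, 0.65 and 0.71 in pachytene, round and elongating cells); the low point in elongating hnRNP genes is *Hnrnpa0*.

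*Srsf3* (chr17:29169618-29180311), the smallest SR protein, which also links splicing to mRNA export, had 77.8, 226 and 142 FPKM in pachytene polysomes, against 53.0, 26.2 and 12.8 FPKM in pachytene RNPs. The difference was 2.33 on the log2 scale (SE 0.65, adjusted p = 0.046). *Srsf5* (chr12:82046491-82051494) had 189.8, 155 and 184 FPKM in pachytene polysomes, against 77.7, 51.1 and 16.05 FPKM in pachytene RNPs, a difference of 2.10 (SE 0.59, adjusted p = 0.047). *Srsf4* had 21.7, 34.8 and 21.6 FPKM in polysomes, against 6.91, 10.01 and 2.73 FPKM in RNPs (difference 1.94, SE 0.49, adjusted p = 0.038). In all 3 SR genes every polysome library stood above every RNP library, and RNP replicate 3 was lowest.

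*Snrpa*, whose product is a U1 snRNP protein that binds a loop of U1 RNA, had 30.2, 39.8 and 53.0 FPKM in pachytene polysomes, against 17.1, 13.95 and 4.49 FPKM in pachytene RNPs (difference 1.85, SE 0.47). *Snrpc*, whose product is the U1 snRNP protein that touches the 5′ splice site, had 206, 192 and 178 FPKM in pachytene polysomes, against 104, 45.7 and 47.0 FPKM in RNPs (difference 1.64, SE 0.44). *Sf3b5*, the small subunit of SF3B, had 80.3, 85.9 and 49.0 FPKM in polysomes, against 27.9, 18.003 and 10.1 FPKM in RNPs (difference 1.95, SE 0.42). The groups did not overlap in any of the 3 genes, and their adjusted p-values from limma were 0.037, 0.042 and 0.025. *Prpf38a*, needed to activate the assembled spliceosome, had 46.3, 38.2 and 34.4 FPKM in polysomes, against 22.5, 12.03 and 7.79 FPKM in RNPs (difference 1.54, SE 0.41). *U2af1l4*, a paralogue of the small U2AF subunit, had 25.8, 28.1 and 23.5 FPKM in polysomes, against 14.4, 8.32 and 4.55 FPKM in RNPs (difference 1.53, SE 0.41). RNP replicate 3 was lowest, or within 2 FPKM of lowest, in each of these genes. Over the 65 genes it was the lowest of the 3 pachytene RNP libraries for 51, where it was lowest for 45.4% of all genes.

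**Figure D3:**
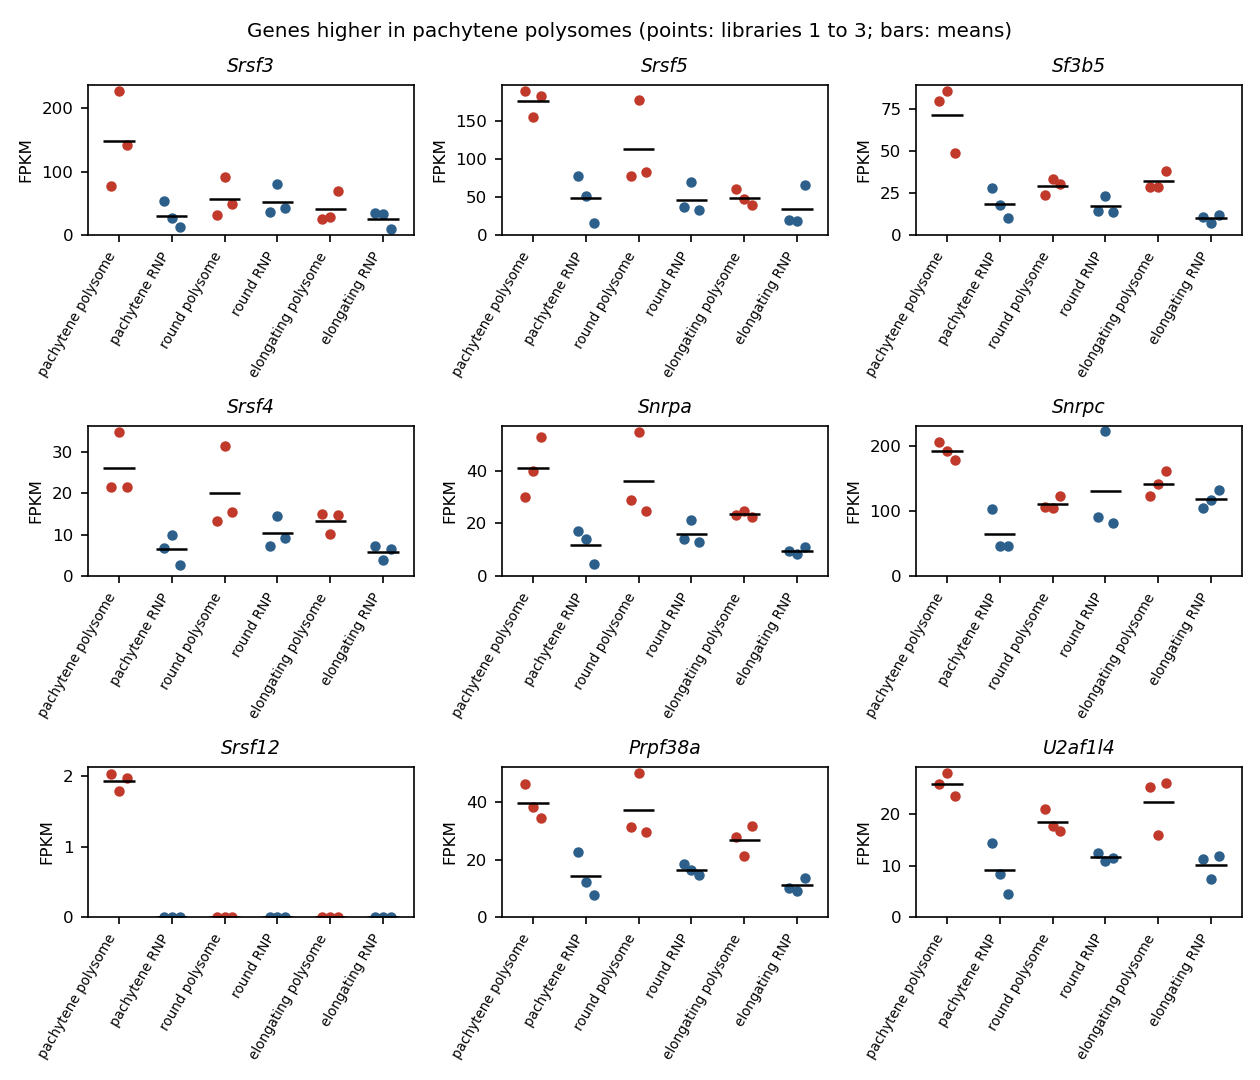
FPKM of the 9 genes called between fractions in pachytene spermatocytes, in all 18 libraries (red, polysome; blue, RNP; black bars, group means). Pachytene polysome points lie above all pachytene RNP points in each panel, and the gap is narrower or absent in round and elongating cells for *Srsf3* and *Snrpc*.

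These calls changed with single libraries and with the scale of the values. Without RNP replicate 3, or without polysome replicate 1, no splicing gene was called; 1 to 3 were called without polysome replicate 2 (*Srsf12*), polysome replicate 3 (*Sf3b5*) or RNP replicate 2 (*Sf3b5*, *Srsf4*, *Srsf12*), and 12 without RNP replicate 1. FPKM levels of most genes were higher in polysome libraries, and scaling the libraries to a common median ratio took the median difference of all genes to 0.18 in pachytene, 0.07 in round and 0.02 in elongating cells. After that scaling no splicing gene was called in any cell type. The 8 called genes other than *Srsf12* then had differences of 0.42 (*Prpf38a*) to 1.18 (*Srsf3*), with *Srsf5* at 0.95. The 65 then had a median of 0.24 with 38 above 0, in a background of 59.1% of all genes above 0. In that scaling 10 of the 11 SR protein genes stayed above 0, *Srsf12* among them through the filter. The SR protein median was then 0.82, while the hnRNP and PRPF medians turned to -0.01 and -0.11 and that of SF3A to -0.71. With both round libraries numbered 2 left out of the fit, which shares its estimate of spread over all groups, 24 were called in pachytene cells, among them all 9, in a background of 2584 calls over all genes.

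In round spermatids no splicing gene was called, with 12 at an unadjusted p under 0.05, where 0.252% of all genes were called higher in polysomes. The median difference was 0.88 beside 0.65 over all genes, and 15 of the 65 had polysome libraries above all RNP libraries, against 14.4% of all genes. In elongating spermatids none was called either, with 19 at an unadjusted p under 0.05, where 1.38% of all genes were called higher. Here the median was 0.94 beside 0.71, and 40 of 65 had polysome libraries above all RNP libraries, against 36.9% of all genes. The SF3B genes had the highest family median in elongating cells, 1.60. *Sf3b4*, an SF3B subunit that contacts RNA near the branch site, had 76.4, 40.1 and 49.4 FPKM in elongating polysomes, against 11.99, 19.5 and 13.7 FPKM in elongating RNPs. Without both round libraries numbered 2, 4 genes were called in elongating cells, *Snrpe*, *Sf3b4*, *Hnrnpd* and *Sf3b5*, and none in round cells. The share of all genes called in that setting is not given here, so this count is no result about the splicing genes as a set. The change of the fraction difference between cell types was tested directly, and no splicing gene was called from pachytene to round cells (4 at an unadjusted p under 0.05, 0.0136% of all genes called) or from round to elongating cells (2 at an unadjusted p under 0.05, 0.00682% of all genes called).

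Averaged over the 3 cell types, a comparison added after the data were seen, 33 of 65 genes, *Srsf12* among them, were called higher in polysomes and none lower, where 30.1% of all genes were called higher. They took in 9 of 11 SR protein genes, 4 of 5 SF3B, 2 of 3 U2AF, 1 of 3 SF3A, 6 of 12 snRNP, 8 of 18 hnRNP and 3 of 13 PRPF genes. *Hnrnpf* had a mean difference of 1.37 (SE 0.29, adjusted p = 0.0037). *U2af1*, which reads the AG of the 3′ splice site, had a mean difference of 1.56 (SE 0.35, adjusted p = 0.0049). *Sf3b1*, the subunit that clamps the branch site helix, had a mean difference of 1.24 (SE 0.45, adjusted p = 0.047). *Sf3b2* stood at 1.30 (SE 0.37, adjusted p = 0.016) and *Sf3a3* at 1.29 (SE 0.33, adjusted p = 0.0085), while *Sf3a1* at 0.11 (SE 0.42), *U2af2* at 0.93 (SE 0.51) and *Prpf8*, the scaffold of the catalytic core, at 0.65 (SE 0.52) were not called. No gene was called after median-ratio scaling, where the median of the 65 was 0.16 beside 0.12 over all genes.

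Other genes of the pathway came from lists of proteins not captured by the 7 name stems. In pachytene cells 8 of 63 other spliceosome proteins rose in polysomes, where 6.16% of all genes were called higher (median 1.29), among them the second-step factor *Slu7* and the Lsm ring gene *Lsm4*. Of 9 exon junction complex genes 2 rose, *Magoh* and *Magohb* (median 1.19). Of 25 other splicing regulators *Elavl1* alone was called, and of 11 genes for Sm protein assembly *Strap* alone. None of 16 SR protein kinases and SR-related genes was called (median 0.70, below the 1.01 of all genes). Averaged over the cell types 35 of 63, 7 of 9, 10 of 25, 4 of 11 and 5 of 16 genes of these lists, in the order above, rose, where 30.1% of all genes were called higher, and 1 splicing regulator fell. After median-ratio scaling *Slu7* alone was called in pachytene cells, and averaged over the cell types 2 of the 63 spliceosome proteins, *Slu7* and *Dhx16*, and 1 exon junction gene, *Magoh*, were called.

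In round spermatids 7 of the 12 snRNP protein genes had a difference above 0, with a median of 0.12, the lowest of the families there, and without both round libraries numbered 2 the median was 0.33, again the lowest. *Snrpd2*, an Sm ring protein, had 70.7, 35.1 and 157 FPKM in elongating polysomes, against 301, 123 and 145 FPKM in elongating RNPs, a difference of -1.25 (SE 0.62, adjusted p = 0.27) with groups that overlapped. Its level in RNPs was 83.0, 58.3 and 47.6 FPKM in pachytene, 83.9, 75.6 and 54.1 FPKM in round and up to 301 FPKM in elongating cells. *Snrpn*, an imprinted Sm gene best known from neurons, had 4.94, 2.34 and 2.56 FPKM in round polysomes, against 9.16, 20.7 and 5.13 FPKM in round RNPs. It was the only member whose round polysome libraries all lay below the RNP libraries, against 0.743% of all genes. Without replicate 2, which held the 20.7 FPKM, both polysome values of *Snrpn* still lay below both RNP values. In elongating cells *Snrpn* had 16.06, 11.95 and 13.9 FPKM in polysomes, against 5.82, 3.42 and 5.73 FPKM in RNPs. Its fraction difference was -1.42 (SE 0.76) in round and 1.34 (SE 0.76) in elongating cells, and the change of 2.76 (SE 1.07) between them did not pass the test (adjusted p = 1, limma). *Snrpc* had 107, 104 and 123 FPKM in round polysomes, against 90.8, 223 and 81.2 FPKM in round RNPs, so that the groups overlapped. Without replicate 2, both polysome values lay above both RNP values.

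The comparison of cell types asks how the same mRNAs varied as cells passed through meiosis and spermiogenesis. Between elongating and pachytene cells, a comparison added after the data were seen, 55 of the 65 genes had lower polysome levels in elongating cells, with a median of -0.82 on the log2(FPKM + 1) scale beside -0.24 over all genes. No member was called in limma other than *Srsf12*, whose call was fixed by the filter, where 2.84% of all genes were called lower, and 21 of the 65 had an unadjusted p under 0.05. The elongating libraries lay below all pachytene libraries for 33 of 65 genes, *Srsf12* among them through the filter, against 22.8% of all genes. They lay above all pachytene libraries for 3, *Sf3b4*, *Snrpa1* and *Snrpn*, against 15.9% of all genes. By family the median was -1.83 for U2AF, -1.55 for SR proteins, -1.24 for SF3A, -0.96 for hnRNP proteins, -0.59 for snRNP proteins, -0.42 for PRPF and -0.23 for SF3B. All 11 SR protein genes had lower means in elongating polysomes, that of *Srsf12* being fixed by the filter. Median-ratio scaling moved the median of the 65 to -0.57 beside -0.02 over all genes, and the SF3B median to 0.03. In these bulk samples fewer cells of a type and less of an RNA per cell cannot be told apart, and the Sertoli marker sums were likewise lower in elongating than in pachytene polysomes (93 to 118 FPKM with 9 or 10 of the 14 markers above 0, against 509.9 to 2329 FPKM with 12 to 14 above 0). The Sertoli markers at 0 in all 6 elongating libraries were *Sox9*, *Gata4*, *Fshr* and *Shbg*. The Leydig cell marker sum was also lower (11.7 to 30.5 FPKM with 3 to 6 of 8 markers above 0 in elongating polysomes, against 160 to 255 FPKM with 6 to 8 above 0 in pachytene polysomes), while the peritubular cell marker sum was higher (124 to 173 FPKM with 4 or 5 of 6 markers above 0, against 32.2 to 66.1 FPKM with 4 or 5 above 0), most of the elongating sum being *Actg2*. The sum over 14 pachytene spermatocyte markers was 3630 to 4518 FPKM in elongating polysomes, against 3842 to 4811 FPKM in pachytene polysomes, most of the elongating sum being *Ldhc*. Over 16 elongating spermatid markers the sum was 9828 to 18180.5 FPKM in elongating polysomes, against 235 to 1985 FPKM in pachytene polysomes. The part of other cells in these values was not tested.

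In RNPs 46 of 65 genes were lower in elongating than in pachytene cells, with a median of -0.54 beside 0.00 over all genes. None was called, where 0.689% of all genes were called in either direction, and 14 had an unadjusted p under 0.05. The elongating libraries lay below all pachytene RNP libraries for 13 of 65 genes, against 7.38% of all genes. They lay above all pachytene RNP libraries for 5, *Hnrnpul1*, *Prpf40b*, *Snrpc*, *Snrpd1* and *Snrpd2*, against 11.8% of all genes. With both round libraries numbered 2 left out of the fit, 14 genes were called lower in elongating polysomes: *Hnrnph1*, *Hnrnpl*, *Hnrnpm*, *Hnrnpul2*, *Prpf19*, *Sf3a1*, *Snrpb*, *Snrpe*, *Srsf1*, *Srsf5*, *Srsf9*, *Srsf11*, *Srsf12* and *U2af1*. Of these, the call of *Srsf12* was fixed by the filter. In RNPs 1 was then called. With median-ratio scaling in addition, 9 were called lower in polysomes, and in RNPs 7 were called lower and 1 higher. The share of all genes called in these settings is not given here, so these counts are no result about the splicing genes as a set.

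*Hnrnpl*, which binds CA repeats, and *Hnrnpm* show the range, and were picked after their values were seen, as were *Snrpb*, *Srsf9* and *Hnrnpul1*. *Hnrnpl* had 13.97, 16.5 and 15.2 FPKM in elongating polysomes, against 32.7, 116 and 185 FPKM in pachytene polysomes, a difference of -2.48 (SE 0.87, adjusted p = 0.095). Pachytene values spread over a range that the elongating libraries did not show. *Hnrnpm* had 9.95, 10.3 and 7.72 FPKM in elongating polysomes, against 44.8, 41.9 and 43.5 FPKM in pachytene polysomes, a difference of -2.12 (SE 0.61, adjusted p = 0.051). *Snrpb*, the SmB gene of the Sm ring, had 21.9, 38.8 and 33.2 FPKM in elongating polysomes, against 53.5, 137 and 258 FPKM in pachytene polysomes (difference -1.99, SE 0.77). *Srsf9* had 5.79, 5.13 and 5.96 FPKM in elongating RNPs, against 19.4, 28.6 and 10.008 FPKM in pachytene RNPs (difference -1.51, SE 0.53). All of these were lower in every elongating library than in any pachytene library of the fraction. *Hnrnpul1* was 1 of the 5 members that lay higher in every elongating RNP library than in any pachytene RNP library. It had 79.0, 77.5 and 107 FPKM in elongating RNPs, against 35.0, 75.3 and 11.997 FPKM in pachytene RNPs (difference 1.42, SE 0.52, adjusted p = 0.20, limma).

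**Figure D4:**
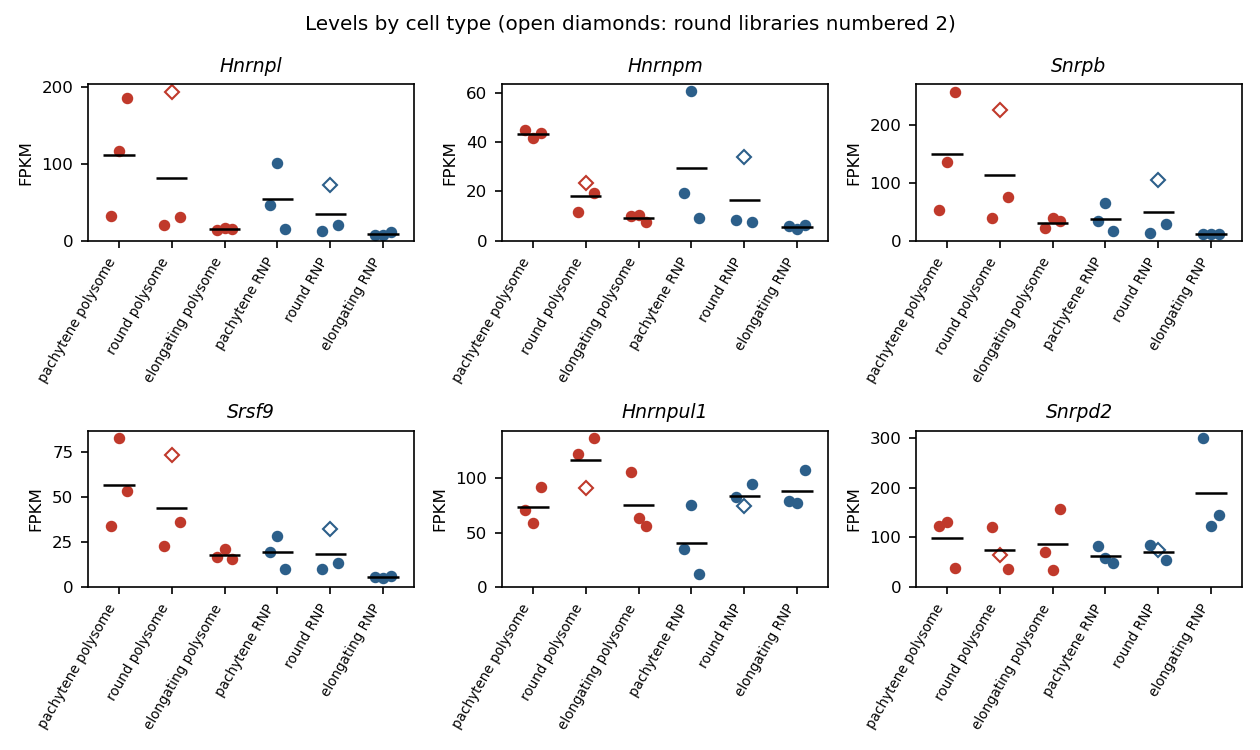
FPKM of 6 genes by cell type, polysomes in red on the left and RNPs in blue on the right of each panel, with black bars for group means of 3 libraries and open diamonds for the round libraries numbered 2. Elongating points of *Hnrnpl*, *Hnrnpm*, *Snrpb* and *Srsf9* lie lowest in each fraction, whereas the elongating RNP means of *Hnrnpul1* (88.0) and *Snrpd2* (189.6) are above those of pachytene RNPs (40.8 and 63.0).

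The neighbouring steps gave no call. For elongating against round cells the median of the 65 was -0.52 beside -0.15 over all genes in polysomes (4 genes at an unadjusted p under 0.05, 0.573% of all genes called) and -0.71 beside -0.19 in RNPs (3 genes, 0.0818% called). Without both round libraries numbered 2 these medians moved to -0.26 beside -0.01 in polysomes and to -0.30 beside -0.02 in RNPs. For round against pachytene cells the median was -0.32 beside -0.07 in polysomes (3 genes at an unadjusted p under 0.05, 0.157% of all genes called) and 0.11 beside 0.22 in RNPs (4 genes, 0% called). Without those libraries the medians were -0.61 beside -0.17 and -0.27 beside 0.09, so that in RNPs the sign of the members' median turned with them. All 11 SR protein genes had lower levels in round than in pachytene polysomes in the full fit (median -0.72) and without those libraries (median -1.28). The direction of *Srsf12*, 1 of the 11, was fixed by the filter.

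The annotation also holds isoforms that NMD is predicted to remove, and for 14 of the 65 genes a splice junction occurs only in such models. The share of a gene's FPKM in transcripts with such a junction could be tested in 6 of them, *Srsf3*, *Srsf5*, *Srsf11*, *Hnrnpu*, *Snrpa1* and *Prpf39*, among 253 genes. The annotated poison exons and alternative exons of 3 SR protein genes are shown because their junctions carry these shares. The sequences are from the mm9 genome, each 30 bases on the coding strand, with capitals for exon bases at splice sites and for the stop codon at stop sites.
Srsf3 poison exon, 3′ splice site (chr17:29176379-29176408): aaaaatgaaccccgttacagAGTCACCATC
Srsf3 poison exon, stop codon (chr17:29176417-29176446): tctcaccaccctcTGAatctgcattagcca
Srsf3 poison exon, 5′ splice site (chr17:29176845-29176874): CCCAAAACTAgtaagtttttcctgcttata
Srsf3 next coding exon, 3′ splice site (chr17:29177700-29177729): tttactgtttctgcttctagATCCCCAAGA
Srsf5 extended exon, 3′ splice site (chr12:82049096-82049125): ttaaaccctttatttgccagCCTATCTGTG
Srsf5 short exon, 3′ splice site (chr12:82050062-82050091): cataattgtcttgtgttaagGATCTCAAAG
Srsf11 upstream poison exon, 3′ splice site (chr3:157687186-157687215, minus strand): tttgttgttgtgttttacagTTCTTTTCCC
Srsf11 upstream poison exon, stop codon (chr3:157687159-157687188, minus strand): ccctggttcagccTGAactatataccaggc
Srsf11 downstream poison exon, 3′ splice site (chr3:157686314-157686343, minus strand): tttttctgtgtgctttatagTGAAGCAGCC
Srsf11 next coding exon, 3′ splice site (chr3:157685905-157685934, minus strand): gcaaggatgtttctctgcagGAGTTATTCC

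All 7 intron ends shown close with AG. The intron end before the *Srsf3* poison exon has 8 pyrimidines (C or T) in its last 20 bases, against 15 before the coding exon that follows, and only 1.51% of 204297 annotated intron ends of protein-coding genes have 8 or fewer. In *Srsf11* the order is the other way round: the poison exons follow intron ends with 13 and 14 pyrimidines, and the next coding exon follows one with 10, a count reached by 6.77% of intron ends as a maximum. The median over all these intron ends was 14. A pyrimidine count describes the letters and is no measure of use.

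The *Srsf3* poison exon (chr17:29176399-29176854, 456 bases, between coding exons) was joined to the next exon in 6 of 9 RNP libraries and in none of 9 polysome libraries. Transcripts with this exit junction made up 8.37, 0 and 19.6% of *Srsf3* FPKM in pachytene RNPs, 13.2, 0 and 11.1% in round RNPs and 0, 14.1 and 16.7% in elongating RNPs. The junction that skips the exon was assembled in all 18 libraries. Averaged over the cell types the polysome minus RNP difference of the share was -9.22 percentage points (SE 3.54), which did not pass the test over 253 genes (adjusted p = 0.19, limma), where 1.58% of genes were called. The entry junction of the exon, which a retained-intron model also holds, was assembled in 4 RNP libraries and in pachytene polysome replicate 2, where it carried 124 FPKM. Counting that junction too, the polysome share in pachytene replicate 2 was 55.0%, so the value of 0 in polysomes held for transcripts that leave the exon by its annotated 5′ splice site and not for those that enter it.

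In *Srsf5* the alternative 3′ splice site lengthens an exon to 1040 bases (chr12:82049116-82050155) in place of 74 (chr12:82050082-82050155). Its share was 44.2, 17.9 and 13.8% in pachytene RNPs, 28.9, 0 and 29.4% in round RNPs and 0, 0 and 69.2% in elongating RNPs. It was found in 1 of 9 polysome libraries, pachytene replicate 1, at 29.1%. The mean difference was -19.4 percentage points (SE 9.40, adjusted p = 0.30, limma). *Srsf11* differed from both: transcripts with its NMD-model junctions were assembled in all 9 polysome libraries, at 17.6 to 56.6%, and in 6 of 9 RNP libraries, at 10.2 to 57.5%. Its mean difference was 15.8 percentage points (SE 10.1, adjusted p = 0.43). Most of it left by the downstream poison exon (chr3:157686207-157686323, 117 bases), whose exit junction was assembled in 9 polysome and 5 RNP libraries. The junction into that exon from the coding exon was assembled in 2 polysome and 4 RNP libraries. That from the upstream poison exon was assembled in 1 polysome and 2 RNP libraries. Most polysome libraries thus held the exit without an annotated entry, so inclusion of the whole exon is not shown there. The stop codon shown lies in the upstream exon. None is shown for the downstream exon, whose name as a poison exon here rests only on the NMD model that holds both exons.

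*Hnrnpu*, a nuclear matrix protein gene, has its NMD-model junctions at an alternative 3′ end. Every *Hnrnpu* transcript counted in the 3 pachytene polysome libraries held such a junction (100%), as in 1 elongating polysome and 1 pachytene RNP library, whereas the round polysome libraries had 0.75, 0 and 0%. Values of 0 and 100% side by side in replicates, as in elongating polysomes (1.84, 0 and 100%), show how far the assembly of a single form moves this share. No splicing gene was called for its NMD-model share in any of 10 comparisons of fractions and cell types. At an unadjusted p under 0.05 there were 2 of the 6 tested members between fractions in pachytene cells, beside 33 of all 253 genes. There was 1 between round and pachytene polysomes (17 of all 253) and 1 between elongating and pachytene polysomes (34 of all 253). Between fractions averaged over the cell types there was 1 (41 of all 253), and there were none in the other 6 comparisons. The lowest adjusted p was that of *Hnrnpu* between round and pachytene polysomes (0.059, limma).

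**Figure D5:**
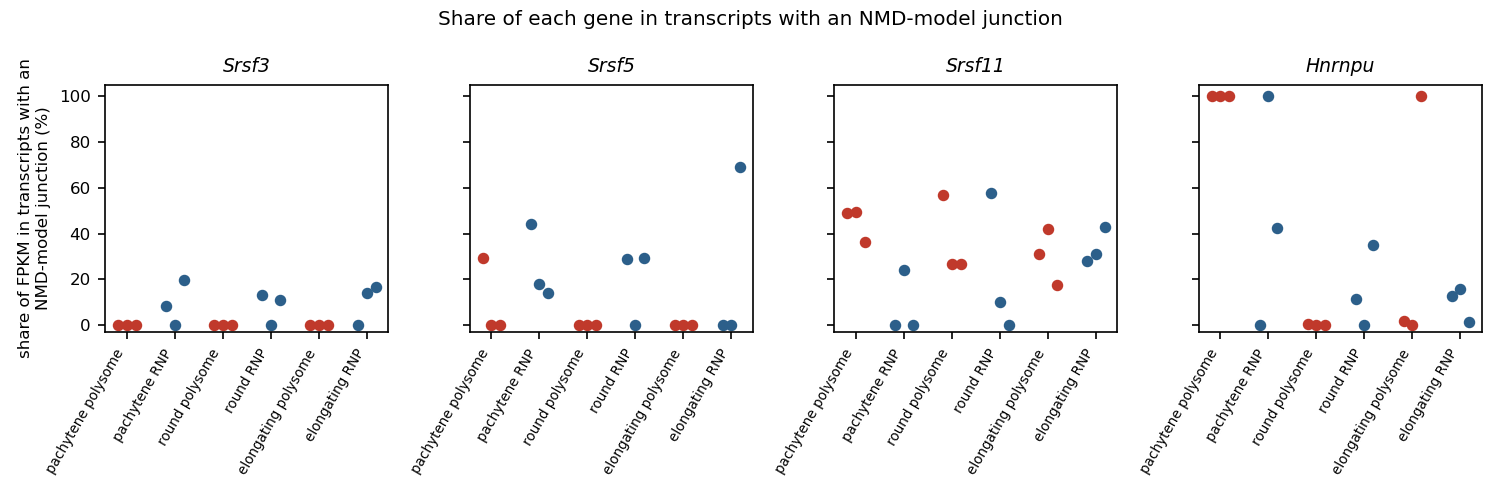
Share of FPKM (percent) in transcripts with an NMD-model junction for 4 genes, 3 libraries a group (red, polysome; blue, RNP). *Srsf3* lies at 0 in all polysome libraries and up to 19.6% in RNPs, *Srsf5* is above 0 in 1 polysome library, *Srsf11* is above 0 in all polysome libraries, and *Hnrnpu* moves between 0 and 100%.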

How the data were processed

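Per the labels and the study's methods, stranded libraries of total RNA were sequenced, reads were trimmed, aligned to mm9 with TopHat and assembled with Cufflinks, 1 deposited transcript file per library. The deposited FPKM of each assembled transcript, a value scaled to transcript length and to mapped fragments, is the authors' value. It carries no further normalization between libraries, read totals were not used here, and whether replicates were separate cell preparations is not stated, so p-values measure the spread between these libraries.

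A transcript was given to the annotated gene (GENCODE vM1) with which it shares a splice junction on the same strand, and FPKM were summed. The 2 members without introns took single-exon transcripts that overlap them. Genes with at least 1 FPKM in at least 3 libraries (14664) were fitted as log2(FPKM + 1), which understates changes of low genes, in limma 3.58.1 (R 4.3.3) with 6 group means and a shared spread, after a check on simulated data. Python 3.11.15 was used for the rest. The NMD-model share is the percent of a gene's FPKM in transcripts with a junction found only in NMD models. The median-ratio scaling used 7038 genes.

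Members, lists and named genes were chosen with earlier results of these data known. Named genes were, by rule, called members of at least 10 FPKM, the 2 most abundant members per family, members against the trend in all 3 cell types (none), members not assembled in at least 9 libraries, and the 4 highest NMD-model shares; others are said to be chosen after their values were seen, and *Sf3b4*, *Snrpn*, *Hnrnpk*, *Srsf3* for its share and *Snrpc* in round cells were too. The main fits used group means alone and did not pair same-numbered libraries. Every correlation of their deviations from group means was over 0.1 for round polysomes with round RNPs (lowest 0.20) and round with pachytene RNPs (lowest 0.12). For pachytene polysomes with pachytene RNPs the correlations were 0.39, 0.32 and -0.07 in the order of the replicates. For round with pachytene polysomes they were 0.48, 0.37 and -0.12. A fit with a replicate block was run as a check in these and other comparisons. Sequences came from the mm9 genome assembly (NCBIM37). Of the members, 1 is counted in every total while its own values are not reported here.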

Additional observations from a re-analysis of the deposited data

How the results depend on the processing

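For the fraction difference in pachytene spermatocytes, 9 splicing genes were called and the same 9 without a filter or with a pseudocount of 0.1. With median-ratio scaling, quantile normalization, whole annotated intron chains, or scaling without both round libraries numbered 2, the count was 0. It was 1 in a fit on only the compared libraries, 24 without both round libraries numbered 2, and 0 to 12 when a library was left out. With whole intron chains *Snrpc* turned to -0.92. With the replicate block, 0 genes were called there and 0 in the elongating minus pachytene polysome comparison. In the other comparisons of 2 groups the block changed no call, including both where every correlation of same-numbered libraries was over 0.1. Its count for the mean fraction difference is not given here. In round cells whole chains gave 1 call. In elongating cells a pseudocount of 0.1 gave 2, leaving out both round libraries numbered 2 gave 4 and the fit on compared libraries gave 19. The shares of all genes called in these settings are not given here, so these counts are no result about the splicing genes as a set.

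For round minus pachytene cells whole chains gave 1 call in RNPs, and no filter, a pseudocount of 0.1 or no round libraries numbered 2 gave 1 each in polysomes. For elongating minus round polysomes whole chains gave 1 call and leaving out a library gave 0 to 1. For elongating minus pachytene cells, leaving out both round libraries numbered 2 gave 1 call in RNPs (8 with scaling) and 14 in polysomes (9 with scaling), the fit on compared libraries gave 13 in polysomes and a minimum of 5 FPKM gave 0. For the mean fraction difference scaling, quantile normalization and scaling without those round libraries gave 0 calls, and whole chains gave 10, against 33. The comparisons between elongating and pachytene cells, the mean over cell types and scaling together with leaving out libraries were added after seeing the data. No setting gave a call for the change of the fraction difference. For the NMD-model share 1 did: without elongating polysome replicate 3, *Hnrnpu* was called between elongating and pachytene polysomes. These counts too are given without the shares of all genes called, and are no result about the splicing genes as a set. The cause of these changes was not tested. A filter at 5 FPKM drops *Srsf12*. Without read totals, values near the assembly limit have unknown counting error.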
